A study of Mus musculus with 8 samples.

Results

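The leukaemia inhibitory factor (LIF) pathway was followed through 10 genes, namely Lif, its receptor subunits Lifr and Il6st, the kinases Jak1 and Jak2, the transcription factor Stat3, and the target genes Socs2, Socs3, Pim1 and Pim3. The genes were picked with earlier results of these data known, so counts over them describe the list and test nothing. Their probe sets were taken by gene symbol alone, as all whose platform annotation gives one of these symbols and no other. This gave 32 probe sets of the 45037 tested on the array, and 10 genes of the 18193 with such a probe set. RNA was taken from the mouse embryonic stem cell (ESC) line R1/E at 48 h of RNA interference with esiRNA, a mixture of short interfering RNAs made by enzymatic digestion. In the knock-down group of 4 arrays the esiRNA was directed against Rad21, which encodes a subunit of the cohesin ring, and in the control group of 4 arrays it was directed against luciferase (Luc), a sequence the cells do not carry. Both groups received 800 ng esiRNA on 80000 cells per well, and the study's methods describe culture of the ESCs in serum and LIF, so both groups were exposed to the cytokine itself. The labels call the arrays biological replicates 1 to 4 and do not say which of the study's Rad21 esiRNAs was used. Nothing further is said about separate cultures, so the p-values measure the spread between these arrays.

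LIF binds the receptor chain LIFR, which pairs with gp130, the product of Il6st. The receptor pair carries JAK kinases, which phosphorylate STAT3, and phosphorylated STAT3 dimers enter the nucleus and bind DNA. In mouse ESCs this route sustains self-renewal in serum culture, and its direct targets include the SOCS proteins, which dampen cytokine signalling, and transcription factors of the naive state. Because STAT3 is regulated largely by phosphorylation, a transcript level of Stat3 is no measure of STAT3 activity.

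The reference promoters are shown for the gene with a STAT motif in this window and for the receptor gene whose called probe sets differed in size. In the RefSeq annotation of GRCm38.p6, 9 of the 10 genes had a promoter of 250 bases before to 50 bases after a transcription start, with 11 starts in all, since Lifr and Pim1 have a pair each. No promoter was available here for Socs2, so that gene was not searched for a motif. A STAT motif, TTCNNNGAA, which covers both strands because its fixed letters read the same on each, occurred at 1 of the 11 starts, that of Socs3, where it begins 154 bases before the start. Of all 32851 promoters of the same length, 8.3% held the motif. The same half-sites, TTC and GAA, with 4 bases between them in place of 3, occurred at 0 of the 11 starts, on either strand, beside 6.95% of all promoters. The Socs3 promoter (chr11:117969317-117969616, minus strand, printed 5′ to 3′ along the gene) has the motif in capitals.
Socs3: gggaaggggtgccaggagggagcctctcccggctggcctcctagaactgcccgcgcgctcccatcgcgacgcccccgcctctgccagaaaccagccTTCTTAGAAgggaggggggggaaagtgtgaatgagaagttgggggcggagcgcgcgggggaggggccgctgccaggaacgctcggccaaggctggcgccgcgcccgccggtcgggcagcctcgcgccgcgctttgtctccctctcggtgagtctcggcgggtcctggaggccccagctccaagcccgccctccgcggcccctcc
Both Lifr promoters lie on the plus strand, at chr15:7129322-7129621 and chr15:7140292-7140591, with each CpG dinucleotide in capitals.
Lifr, start 1: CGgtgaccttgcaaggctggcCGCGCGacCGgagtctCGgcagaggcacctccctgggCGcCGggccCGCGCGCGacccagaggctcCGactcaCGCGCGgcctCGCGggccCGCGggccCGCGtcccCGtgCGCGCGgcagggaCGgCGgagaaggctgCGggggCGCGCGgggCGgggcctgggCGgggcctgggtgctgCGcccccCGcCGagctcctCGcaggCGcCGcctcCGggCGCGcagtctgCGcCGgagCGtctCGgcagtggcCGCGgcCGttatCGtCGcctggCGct
Lifr, start 2: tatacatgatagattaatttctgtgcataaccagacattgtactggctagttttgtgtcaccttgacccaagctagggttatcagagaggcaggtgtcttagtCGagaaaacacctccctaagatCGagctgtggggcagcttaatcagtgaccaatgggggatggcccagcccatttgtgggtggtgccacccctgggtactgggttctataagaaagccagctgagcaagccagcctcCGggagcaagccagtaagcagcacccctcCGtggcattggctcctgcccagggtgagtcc
The first Lifr start holds 53 CpGs at 81.3% GC, against 4 CpGs at 53.3% GC for the second, and the median over all promoters is 7 CpGs and 52.7% GC. The Jak2 promoter, with 44 CpGs, the Pim3 promoter, with 40, and the Il6st promoter, with 33, lie on the CpG-rich side, and the Lif promoter holds 7. Pim1 has 1 start with 42 CpGs and 1 with 5. The array values do not tell which start a transcript came from.

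The Rad21 transcript was measured first as a check of the labels. Its brightest probe set gave 11.69, 11.75, 12.37 and 12.52 in the knock-down arrays, against 13.62, 13.42, 13.83 and 13.79 in the Luc arrays, on the log2 scale on which all levels are given. The groups did not overlap, and the change was -1.58 ± 0.21 (SE, adjusted p = 0.00222 by limma), which leaves 33.4% of the Luc level. Array medians lay between 3.08 and 3.16, and the 3′ minus 5′ signal of Gapdh, a measure of RNA quality, ran from -0.30 to -0.25 in the knock-down arrays and from -0.28 to -0.23 in the Luc arrays (two-sided exact permutation test, p = 0.514, where the smallest possible p is 0.0286). The first principal component held 66.2% of the variance, and the second, with 11.6%, separated replicates 1 and 2 from replicates 3 and 4. All 8 ESC markers were bright, with group means of 11.30 to 15.70 in the knock-down and 11.74 to 15.90 in the control, and 5 of them fell. Their summed linear level was 180300 to 186700 in the knock-down arrays and 212800 to 218900 in the Luc arrays. Of 7 endoderm markers 2 rose (Foxa2 by 4.63 and Dab2 by 2.06), with a summed level of 251.5 to 356.2 in the knock-down arrays and 57.25 to 68.12 in the Luc arrays, while Gata4, Gata6, Sox17, Afp and Ttr stayed under a mean of 4 in both groups. Of 6 trophoblast markers 2 rose (Cdx2 by 1.10 and Krt7 by 2.83), with sums of 2415 to 4451 in the knock-down arrays and 1646 to 3113 in the Luc arrays, and Elf5 and Hand1 stayed under 4. Of 4 primed epiblast markers 1 rose, Otx2 by 0.87 (adjusted p = 0.0066), with sums of 21080 to 24800 in the knock-down arrays and 19990 to 21480 in the Luc arrays. The brightest gene weighs most in such a sum and was not called in either list. It was Krt8 for trophoblast (change 0.52, adjusted p = 0.433 in limma) and Dnmt3b for primed epiblast (0.06, adjusted p = 0.693). Within each replicate set, though, the knock-down arrays lay above the Luc arrays for Krt8. Replicates 1 and 2 gave 12.04 and 11.99 in the knock-down and 11.51 and 11.47 in the control. Replicates 3 and 4 gave 11.26 and 11.06 in the knock-down and 10.74 and 10.57 in the control. Of 7 fibroblast markers 0 rose and 1 fell, and 5 of them, among them Col1a1 and Col1a2, were under 4 in both groups. The part of these marker shifts in the results below was not tested, and in RNA of whole wells fewer cells of a type and less RNA per cell cannot be told apart.

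Of the 10 genes, taken at their brightest probe set, 5 fell (Lifr, Il6st, Socs2, Pim1 and Pim3), 1 rose (Jak2) and 4 did not pass the test (Lif, Jak1, Stat3 and Socs3). The call was an adjusted p under 0.05 in limma with Benjamini-Hochberg adjustment over all 45037 probe sets. Over all 18193 genes 22.6% were called, with 12.6% falling and 10.1% rising, and over the 10299 genes with a mean of 4 or more, a range that all 10 members reach, 38.6% were called and 22.0% fell. In the same 6 genes the knock-down and Luc arrays did not overlap, beside 27.8% of all genes, a share that includes 7742 genes under a mean of 4 in both groups. The median change of the 10 genes was -0.10, against 0.0033 over all genes and -0.034 over the genes with a mean of 4 or more. At the level of probe sets 11 of 32 fell, 1 rose and 20 were not called, where 8.40% of all probe sets fell and 6.47% rose. These shares are not matched for brightness, since most probe sets of each array lay under 4, with array medians of 3.08 to 3.16. In 7 of the 32, spread over 6 genes, both group means were under 4, where the authors' background correction flattens differences, and 0 of these were called.

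**Figure D1:**
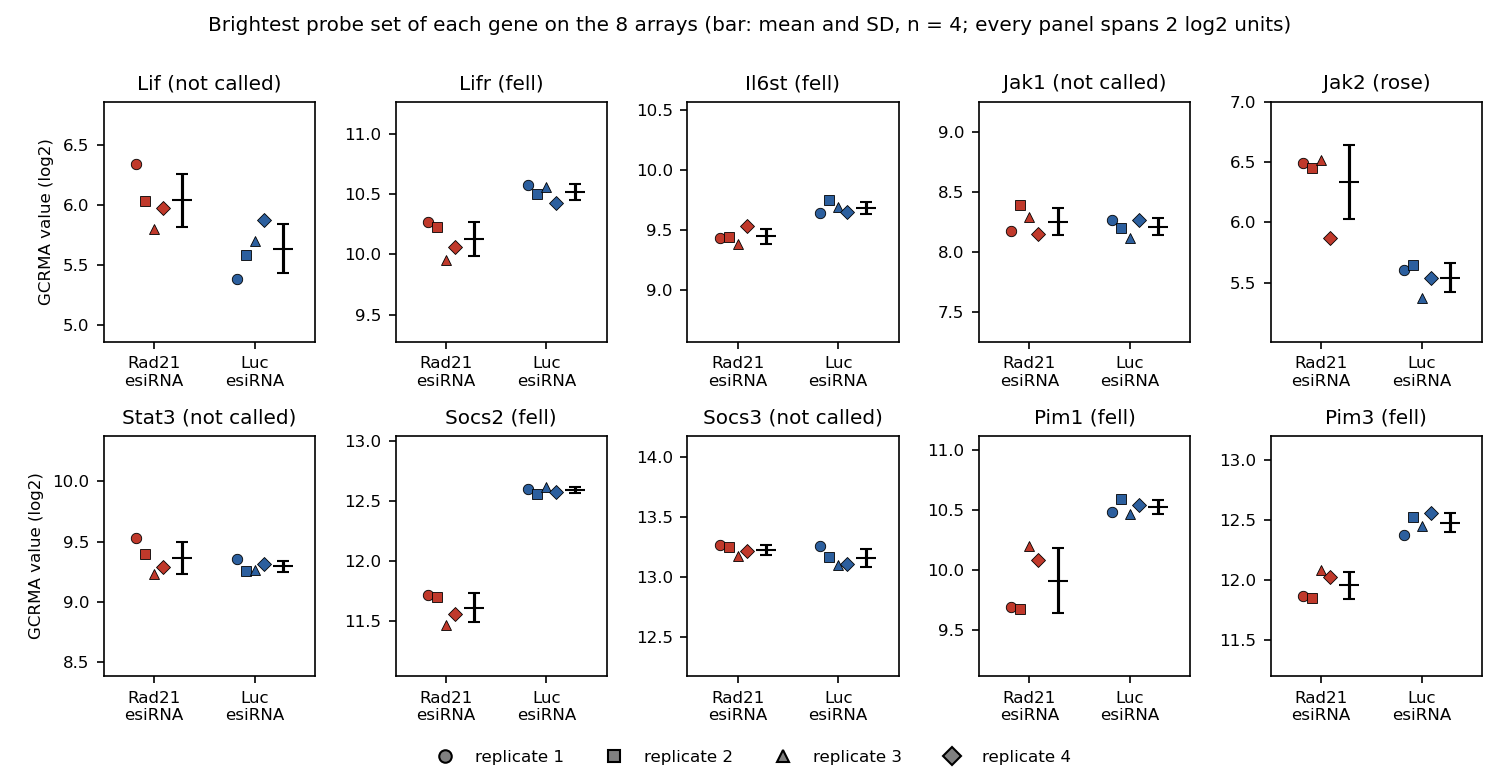
Level of the brightest probe set of each of the 10 genes in every array, on the log2 scale, with the 4 Rad21 knock-down arrays left of the 4 Luc arrays; points are arrays, and the bars beside them show the group mean and SD (n = 4). Socs2 lies between 11.47 and 11.72 in the knock-down arrays and between 12.56 and 12.61 in the Luc arrays, whereas the arrays of both groups overlap for Lif, Jak1, Stat3 and Socs3.

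The ligand gene did not pass the test. Lif, which ESCs in feeder-free culture can make themselves, gave 6.34, 6.03, 5.80 and 5.98 in the knock-down arrays and 5.39, 5.59, 5.70 and 5.88 in the Luc arrays. The highest Luc array lay above the lowest knock-down array. The change was 0.40 ± 0.14 (SE, 95% interval 0.08 to 0.72, adjusted p = 0.109 in limma). Neither of the 2 Lif probe sets was called, 1 of them had an unadjusted p under 0.05, and 0 were called by a plain analysis of variance; the second was at 2.09 in the knock-down and 2.18 in the control.

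Both receptor chains fell, Lifr with very different sizes at its probe sets. The brightest Lifr probe set gave 10.27, 10.23, 9.96 and 10.06 in the knock-down arrays and 10.58, 10.51, 10.57 and 10.43 in the Luc arrays. All knock-down arrays were below all Luc arrays, and the change was -0.39 ± 0.07 (SE, 95% interval -0.56 to -0.22, adjusted p = 0.0105), or 76.2% of the Luc level. A second Lifr probe set, 1425107_a_at, gave 4.69, 4.20, 4.24 and 3.95 in the knock-down arrays and 6.02, 6.06, 5.70 and 5.61 in the Luc arrays. This gap was wider, with a change of -1.58 ± 0.17 (adjusted p = 9.51e-04), which leaves 33.5%, and its size was close to equal in both replicate sets (-1.60 and -1.56). The intervals of these 2 changes, -0.56 to -0.22 and -1.98 to -1.17, did not overlap, and the transcripts each probe set detects were not resolved here. The last Lifr probe set was dim, at 2.32 in the knock-down and 2.54 in the control (adjusted p = 0.557), and the mean of all Lifr probe sets changed by -0.73.

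Il6st encodes gp130, the signalling chain shared by receptors of the interleukin-6 family. Its brightest probe set gave 9.43, 9.44, 9.38 and 9.53 in the knock-down arrays and 9.64, 9.75, 9.69 and 9.65 in the Luc arrays. The groups did not overlap, but the change was small, -0.24 ± 0.04 (SE, 95% interval -0.33 to -0.15, adjusted p = 0.00561), or 84.9% of the Luc level. Of the other 3 Il6st probe sets 0 were called and 1 had an unadjusted p under 0.05. The second brightest had a change of -0.33 ± 0.14 (adjusted p = 0.196), the third -0.14 ± 0.09 (adjusted p = 0.470), and the remaining one, which was dim, lay at 0.00.

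The kinases differed from each other. Jak2, which encodes a kinase that binds many cytokine receptors, was the 1 member that rose, with 6.49, 6.45, 6.52 and 5.87 in the knock-down arrays and 5.61, 5.64, 5.37 and 5.54 in the Luc arrays. Replicate 4 of the knock-down was the lowest of its group, and still above every Luc array. The change was 0.80 ± 0.15 (SE, 95% interval 0.44 to 1.15, adjusted p = 0.0106), or 174% of the Luc level, and the other Jak2 probe set was dim in both groups, at 2.44 in the knock-down and 2.36 in the control (adjusted p = 0.678), so that the mean of both probe sets changed by 0.44.

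Jak1 encodes the kinase on which gp130 signalling mainly depends. It gave 8.18, 8.39, 8.29 and 8.15 in the knock-down arrays and 8.27, 8.20, 8.12 and 8.27 in the Luc arrays. The arrays of both groups were interleaved, and the change of 0.04 ± 0.06 had a 95% interval of -0.10 to 0.18 (adjusted p = 0.847). Its other 2 probe sets gave -0.19 ± 0.11 (adjusted p = 0.420) and -0.17 ± 0.17 (adjusted p = 0.709), and 0 of the 3 had an unadjusted p under 0.05 or a call in the plain analysis of variance.

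Stat3 itself showed no change past the test in any of its 4 probe sets. The brightest gave 9.53, 9.40, 9.23 and 9.29 in the knock-down arrays and 9.35, 9.26, 9.26 and 9.31 in the Luc arrays. Both ends of the knock-down range lay outside the Luc range, and the change of 0.07 ± 0.06 had a 95% interval of -0.08 to 0.22 (adjusted p = 0.684). The second probe set, with a change of 0.05 ± 0.10 (adjusted p = 0.891), gave 9.29, 9.32, 8.96 and 8.88 in the knock-down arrays and 9.13, 9.06, 9.003 and 9.04 in the Luc arrays. Knock-down replicates 1 and 2 were the highest of the 8 there, and replicates 3 and 4 the lowest. A further one gave -0.08 ± 0.21 (adjusted p = 0.924) and the last, dim one 0.00, and 0 of the 4 had an unadjusted p under 0.05 or a call in the plain analysis of variance.

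The 2 SOCS genes, both known STAT targets that encode inhibitors of cytokine receptors, gave unlike results. Socs2 had the largest change among the brightest probe sets of the 10 genes, with 11.72, 11.70, 11.47 and 11.56 in the knock-down arrays and 12.60, 12.56, 12.61 and 12.58 in the Luc arrays. The Luc arrays spanned a narrow range, well above the highest knock-down array. The change was -0.98 ± 0.06 (SE, 95% interval -1.11 to -0.85, adjusted p = 5.92e-05), which leaves 50.8% of the Luc level.

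Another 3 of the 6 Socs2 probe sets fell too. The second brightest, 1418507_s_at, gave -0.86 ± 0.05 (adjusted p = 7.66e-05). Its name ends in _s_at, a mark that was left out, with _x_at, in 1 of the alternatives. The third gave 7.58, 7.58, 6.56 and 7.13 in the knock-down arrays and 8.53, 8.48, 8.52 and 8.39 in the Luc arrays. Its change was -1.27 ± 0.22 (adjusted p = 0.00741). The fourth, 1446085_at, fell by 0.92 (adjusted p = 0.0263) and was the least firm, since its call was lost without knock-down replicate 3 (adjusted p = 0.0589) or 4 (0.0699), without Luc replicate 2 (0.0601), 3 (0.0666) or 4 (0.0725), and in the plain analysis of variance (0.0652). In all 4 the groups did not overlap, where 19.4% of all probe sets, dim ones included, did not. The remaining 2 Socs2 probe sets were dim and changed by -0.07 and -0.03 without a call.

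Socs3, whose product binds gp130 and JAKs, did not pass the test. Its brightest probe set gave 13.27, 13.25, 13.18 and 13.22 in the knock-down arrays and 13.26, 13.17, 13.10 and 13.11 in the Luc arrays. The groups overlapped, and the change of 0.07 ± 0.04 had a 95% interval of -0.03 to 0.17 (adjusted p = 0.410), while the second gave 0.14 ± 0.06 (adjusted p = 0.209). Both have names ending in _x_at, which marks probes that can hybridise to several transcripts. The 1 Socs3 probe set without that mark ran the other way, with 9.38, 9.29, 9.36 and 9.27 in the knock-down arrays and 9.68, 9.81, 9.28 and 9.49 in the Luc arrays. Luc replicate 3 was the low one of its group, at the level of the knock-down arrays. The change was -0.24 ± 0.11 (adjusted p = 0.235), and without Luc replicate 3 it was -0.34 with a call (adjusted p = 0.0352). Of the 3 Socs3 probe sets 1 had an unadjusted p under 0.05 and 0 were called by the plain analysis of variance, so the direction of Socs3 depended on the probe set.

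Pim1 and Pim3, which encode serine/threonine kinases that promote survival and are induced by cytokines through STAT factors, both fell. Pim2, which is not among the 10 genes, changed by 0.62 without a call (adjusted p = 0.0688 in limma). Pim1 gave 9.69, 9.67, 10.20 and 10.09 in the knock-down arrays and 10.48, 10.59, 10.47 and 10.55 in the Luc arrays. Knock-down replicates 1 and 2 were lower than replicates 3 and 4, and all were below the Luc arrays. The change was -0.61 ± 0.13 (SE, 95% interval -0.91 to -0.32, adjusted p = 0.0151), or 65.4% of the Luc level, and the second Pim1 probe set gave -0.60 ± 0.10 (adjusted p = 0.0055).

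Pim3 gave 11.87, 11.85, 12.08 and 12.02 in the knock-down arrays and 12.38, 12.52, 12.45 and 12.56 in the Luc arrays. The groups were apart, with a change of -0.52 ± 0.06 (SE, 95% interval -0.67 to -0.37, adjusted p = 0.00163), or 69.6% of the Luc level. That probe set also has a name ending in _x_at, but a second one without it, 1451069_at, fell by 0.57 (adjusted p = 0.0061). The last one changed by -0.10 ± 0.19 and was not called (adjusted p = 0.885).

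**Figure D2:**
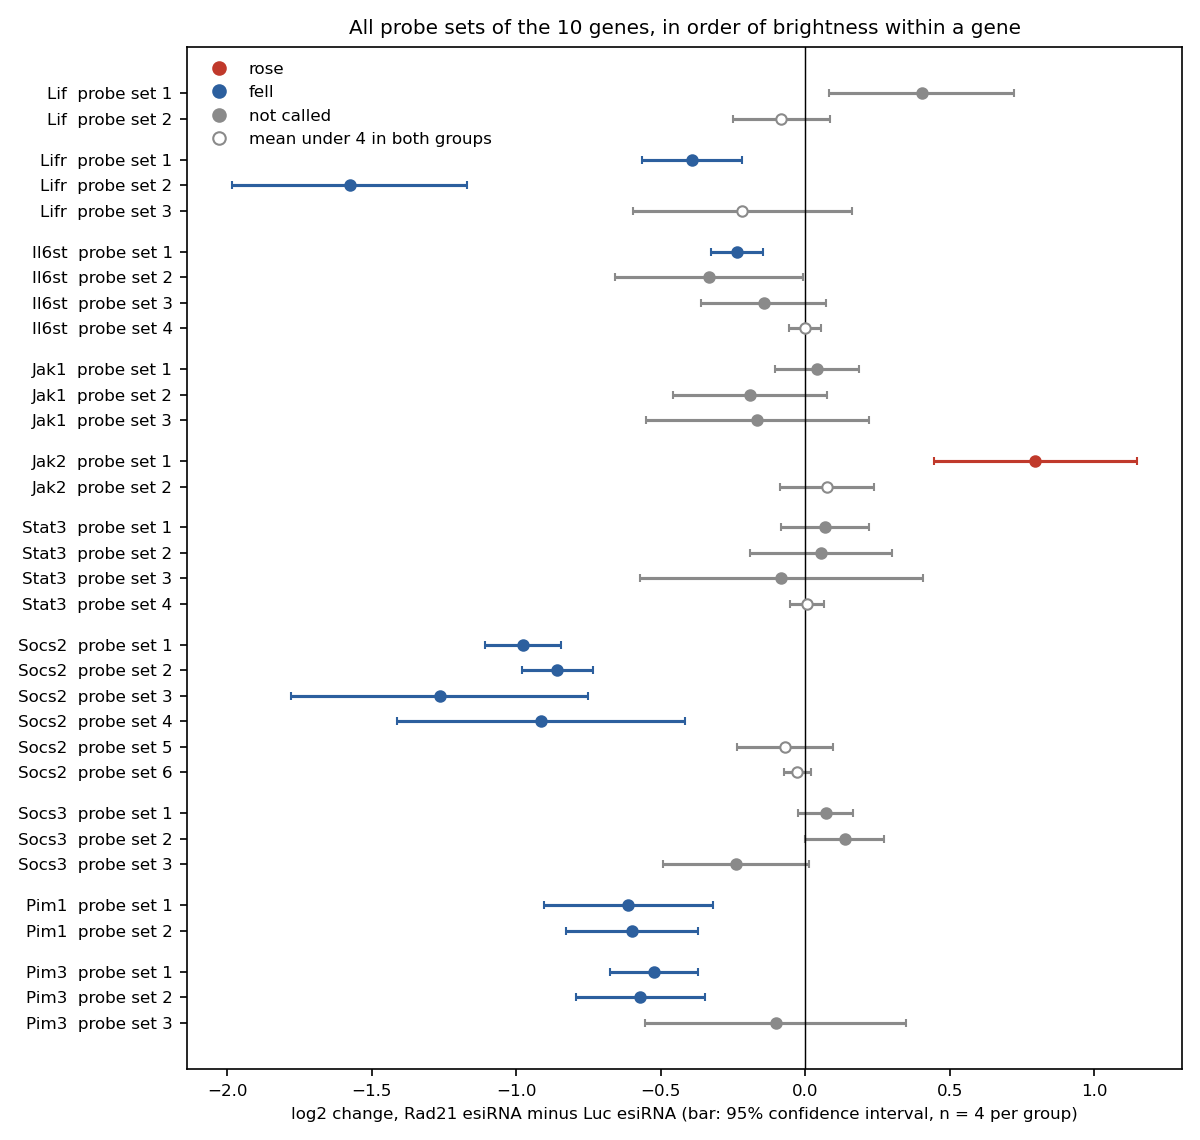
Change of each of the 32 probe sets of the 10 genes, knock-down minus Luc on the log2 scale, with 95% intervals; a value left of 0 is lower in the knock-down. Socs2, Lifr, Pim1 and Pim3 each have at least 2 probe sets called as lower, the single called rise belongs to Jak2, and the 7 dim probe sets lie between -0.22 and 0.07.

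Since the second principal component separated the replicate numbers, changes were also taken within replicates 1 and 2 and within replicates 3 and 4, with 2 arrays per group in each. The labels name no batch. Within replicates 1 and 2, 6 of the 10 genes were called (19.9% of all genes), and within replicates 3 and 4, 3 were called (15.3% of all genes). Lifr, Socs2 and Pim3 were called in both sets. Lifr changed by -0.29 in replicates 1 and 2 and by -0.49 in replicates 3 and 4, Socs2 by -0.87 and -1.08, and Pim3 by -0.59 and -0.45. Il6st changed by -0.26 in replicates 1 and 2 (adjusted p = 0.0582) and by -0.21 in replicates 3 and 4 (adjusted p = 0.176), so that it was called in neither set alone. Jak2 changed by 0.85 (adjusted p = 0.0032) and 0.74 (adjusted p = 0.233) in these sets, and Pim1 by -0.86 and -0.37, the second without a call (adjusted p = 0.0528). For Lif the change was 0.70 with a call in replicates 1 and 2 (adjusted p = 0.0414) and 0.10 without one in replicates 3 and 4 (adjusted p = 0.578), and a test of the gap between both values was not passed (adjusted p = 0.284). The Socs2 probe set 1446085_at was called in replicates 3 and 4 (-1.44, adjusted p = 0.0132) but not in replicates 1 and 2 (-0.39, adjusted p = 0.238). Among other fainter probe sets, 2 of Jak1 were called in replicates 3 and 4 alone, with -0.17 (adjusted p = 0.0363) and -0.50 (adjusted p = 0.0419), and the Socs3 probe set without the _x_at mark in replicates 1 and 2 alone, with -0.41 (adjusted p = 0.0285). A test of the difference between the sets, fitted as an interaction in limma, was passed by 1 of the 32 probe sets, where 0.777% of all probe sets passed. It was 1451069_at of Pim3, which changed by -0.81 in replicates 1 and 2 and by -0.33 in replicates 3 and 4 (adjusted p = 0.0336). Rad21 itself changed by -1.80 in replicates 1 and 2 and by -1.36 in replicates 3 and 4. Among the called genes, Pim1, Pim3, Il6st and Jak2 changed less, and Lifr and Socs2 more, in the set in which Rad21 changed less. At the brightest probe sets none of these gaps passed the interaction test, that of Rad21 included. The adjusted p was 0.0776 for Pim1, 0.199 for Socs2, 0.201 for Rad21 and 0.497 or more for the others. The part of the Rad21 level in these values was not tested.

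**Figure D3:**
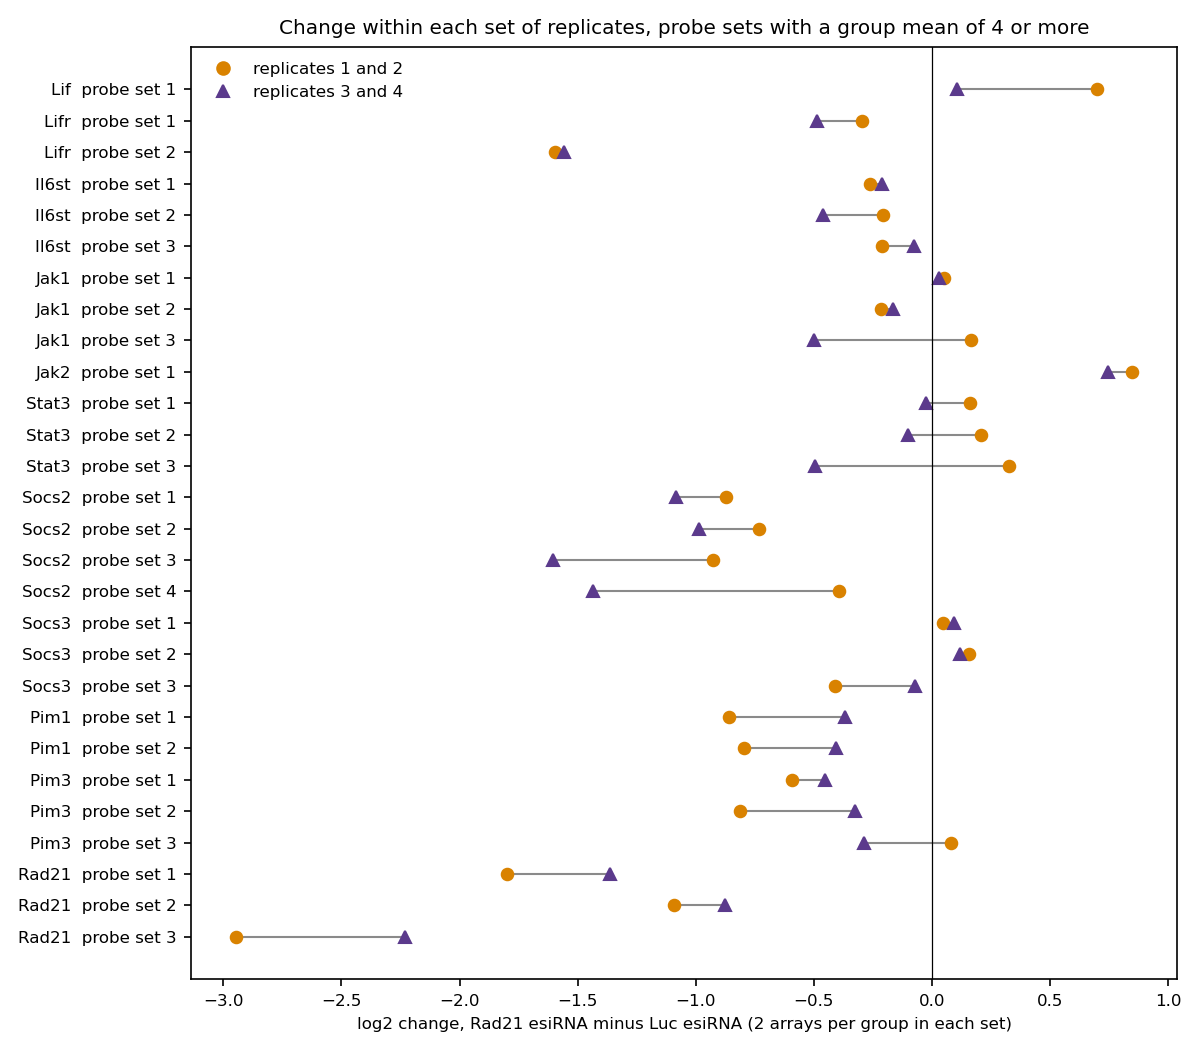
Change of the 25 probe sets of the 10 genes with a group mean of 4 or more, and of the Rad21 probe sets, knock-down minus Luc on the log2 scale, within replicates 1 and 2 (circles) and within replicates 3 and 4 (triangles). At their brightest probe sets Lifr, Il6st, Socs2, Pim1 and Pim3 are below 0 in both sets and Jak2 is above 0 in both, whereas Stat3 is at 0.16 in one set and -0.02 in the other.

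The rest of the pathway was taken as 5 lists of 60 genes, of which 54 had a single-symbol probe set. Among these 54 genes 15 fell, 4 rose and 35 were not called, with a median change of -0.06. Over all 18193 genes 12.6% fell and 10.1% rose, and over genes with a mean of 4 or more, which leaves out 11 of the 54, 22.0% fell and 38.6% were called. Of the 10 measured interleukin-6 family ligands and receptors 0 were called by limma or by the plain analysis of variance, 2 had an unadjusted p under 0.05, and 8 were under a mean of 4 in both groups. Of the 7 other JAKs and STATs 2 fell and 0 rose, with a list median of -0.06. Falls made up 12.6% of all genes and 22.0% of those with a mean of 4 or more, and 2 of the 7 were under 4 in both groups. Stat6, the STAT of interleukin-4 signalling, gave 8.61, 8.57, 8.69 and 8.76 in the knock-down arrays and 9.91, 9.81, 10.03 and 10.02 in the Luc arrays. The groups were far apart, with a change of -1.28 ± 0.06 (adjusted p = 2.54e-05), which leaves 41.1% of the Luc level. Stat4, the STAT of interleukin-12 signalling, fell by 0.56 (adjusted p = 0.0014).

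Among the 13 inhibitors and phosphatases 4 fell and 0 rose, where 8 had an unadjusted p under 0.05, 2 upwards and 6 downwards, and the plain analysis of variance called 4 falls. This stands beside 22.0% of falls among all genes with a mean of 4 or more, and the list median was -0.02. Pias3, which encodes an inhibitor of STAT3, fell by 0.56 (adjusted p = 1.94e-04), and Pias4, a SUMO ligase of the same family, fell by 0.49 (adjusted p = 5.98e-04). Only 1 of 2 Pias3 and 1 of 3 Pias4 probe sets were called, and the mean of a gene's probe sets changed by -0.33 for Pias3 and by -0.23 for Pias4. Cish, which like Socs2 belongs to the SOCS family and is induced by cytokines, fell by 0.53 (adjusted p = 0.0103), though in neither replicate set alone (adjusted p = 0.106 and 0.102), and Socs7 fell by 0.36 (adjusted p = 0.0133), with -0.22 as the mean of its probe sets. Ptpn2, which encodes a phosphatase of JAKs and STATs, was not called at its brightest probe set (-0.18 ± 0.05, adjusted p = 0.078), although 3 of its 4 probe sets were called as lower. Pias2 was not called at its brightest probe set either (0.11, adjusted p = 0.256), and 1 of its 3 probe sets was called as higher. For Socs4 the brightest was not called (0.18, adjusted p = 0.171), and 1 of its 4 probe sets was called as lower. Of 8 adaptors that link the receptor to ERK and PI3K signalling, 3 rose and 1 fell, where 38.6% of all genes with a mean of 4 or more were called, with a median of 0.04. Ptpn11, which encodes the phosphatase SHP2 that docks on gp130, rose by 0.31 ± 0.03 at its brightest probe set (adjusted p = 8.27e-04), but only 1 of its 3 probe sets was called and the mean of the 3 changed by -0.06 (adjusted p = 0.554). The PI3K subunits Pik3ca, catalytic, and Pik3r1, regulatory, rose by 0.47 ± 0.11 (adjusted p = 0.0221) and 0.44 ± 0.09 (adjusted p = 0.0176). The Pik3ca call was lost when any of 5 single arrays was left out, knock-down replicate 1 or 2 or Luc replicate 2, 3 or 4, with adjusted p up to 0.0623, and the Pik3r1 call was lost without knock-down replicate 2 (adjusted p = 0.0505). Grb2, an adaptor between receptors and RAS, fell by 0.57 (adjusted p = 0.0106).

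The list of 16 further LIF and STAT3 targets held most of the falls. In it 8 genes fell and 1 rose, where 22.0% of all genes with a mean of 4 or more fell, with a median change of -0.59. The plain analysis of variance called 7 falls and 1 rise. Tfcp2l1, a transcription factor that acts downstream of STAT3 in mouse ESCs, fell by 1.61 (adjusted p = 4.06e-04), although only 1 of its 3 probe sets was called and their mean changed by -0.53. Klf4, a STAT3 target of the naive network, fell by 1.44 (adjusted p = 7.52e-06), and Klf5, a related factor, fell to a mean of 11.71 in the knock-down, against 12.71 in the control (adjusted p = 4.22e-04). Esrrb, an orphan nuclear receptor, fell by 1.43 (adjusted p = 2.66e-04), and Myc, which encodes a growth-promoting transcription factor, fell by 0.94 (adjusted p = 1.83e-04). The other 3 falls, of Bcl3, Gbx2 and Junb, ranged from -0.81 to -0.45. Gbx2 was close to the threshold (adjusted p = 0.049), and Junb was not called within replicates 1 and 2 (adjusted p = 0.0553) or within replicates 3 and 4 (0.250). The gene that rose was Mcl1, an anti-apoptotic member of the BCL2 family, with 0.26 ± 0.04 (adjusted p = 0.0030). In replicates 1 and 2 alone it was not called (0.19, adjusted p = 0.0927), and the mean of its probe sets changed by 0.13. Klf4, Esrrb and Myc are among the genes the study chose to show from such samples, so their direction here is not independent evidence. The list was also chosen with earlier results of these data known, so its count of falls and its median describe the list and test nothing.

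**Figure D4:**
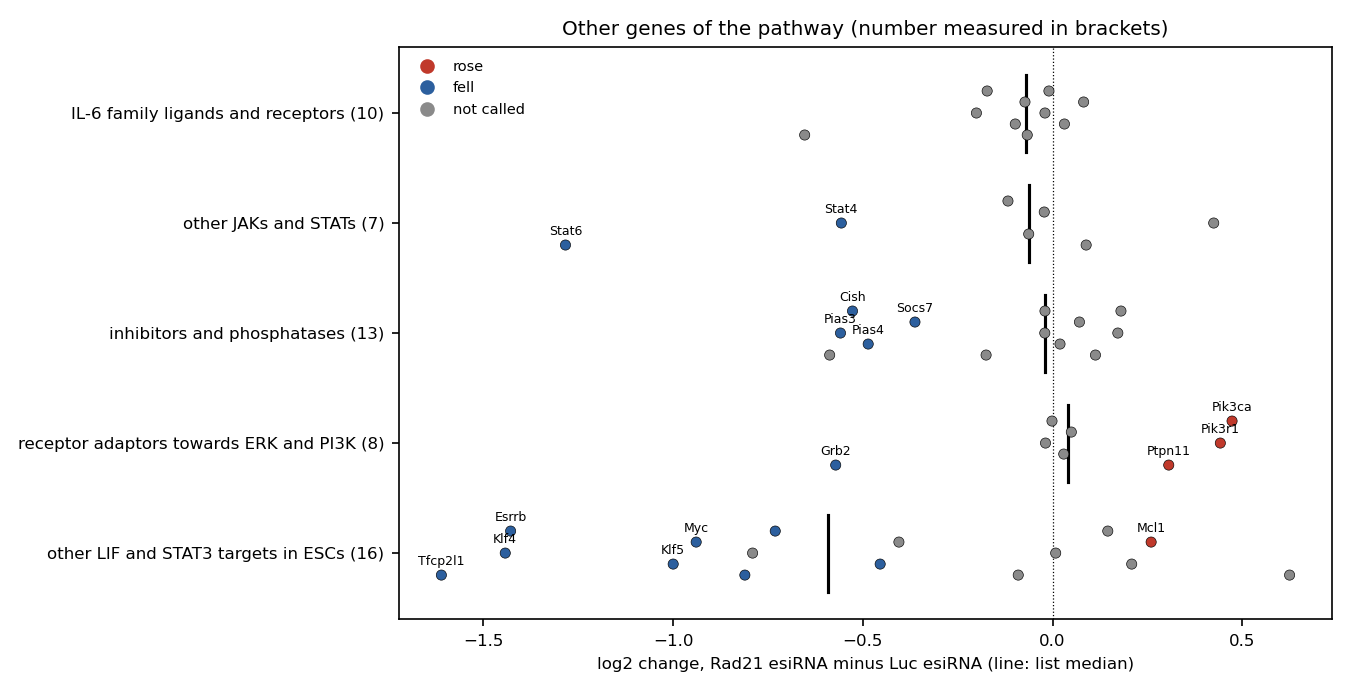
Change of each measured gene of the 5 further pathway lists, knock-down minus Luc on the log2 scale, 1 point per gene at its brightest probe set, coloured by its call, with a line at the median of each list. The list of other LIF and STAT3 targets reaches down to -1.61, and most points of the interleukin-6 family list lie near 0, with 8 of its 10 genes dim in both groups.

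The genes whose values over the 8 arrays were most like those of Socs2 were Sox15, Itga9 and Zfp654, with root mean square differences of 0.062, 0.067 and 0.068 after each gene was centred on its own mean, out of 18192 genes searched. Their changes were -0.997, -0.92 and -1.01, which lie near that of Socs2 because of how these genes were picked. For Stat3 the nearest were Foxl2 (0.035), Tmem131l (0.037) and Col22a1 (0.042), of which Foxl2 and Col22a1 were under a mean of 4 in both groups.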

How the data were processed

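The deposited values are log2 expression values per probe set of an Affymetrix mouse array, made by the authors with GCRMA in Partek 6.4 (submitters' processing notes). GCRMA corrects background by GC content and scales the arrays to each other, so a shift of all transcripts would largely be lost and dim values gather on a low plateau. Here 64 control probe sets were left out. Symbols came from the platform annotation (34945 probe sets with 1 symbol, 932 with several, 9160 with none here), and the brightest probe set, by its mean over the 8 arrays, stood for a gene. Levels were not compared between probe sets.

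The 4 knock-down and 4 Luc arrays, grouped by their labels, were compared with limma 3.58.1 (lmFit and eBayes, R 4.3.3, the data.table package at version 1.17.8, statmod 1.5.0), two-sided, without a block or a filter, adjusted by Benjamini-Hochberg over 45037 probe sets; the test was checked on simulated data. An analysis of variance, which the study's methods name, was run as an alternative. The others were a robust prior with a variance trend, the replicate number or the replicate set as a block, fits within replicates 1 and 2 or 3 and 4, quantile normalization, a minimum mean of 4, centring on probe sets with a mean over 8, the mean of a gene's probe sets, leaving out _x_at and _s_at probe sets, and leaving out each array. The number of arrays limits the precision.

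The members and gene lists were chosen with earlier results of these data known. Named are all member and Rad21 probe sets, up to 5 called genes per list and direction in order of size, and the 3 genes most like Stat3 and like the member with the largest change. Bcl3, Gbx2, Junb, Ptpn2, Pias2, Socs4, the cell type markers named and the genes of the last section were named after their values were seen. Promoters came from RefSeq (GRCm38.p6). Promoters and plots were handled in Python 3.11.15 with pandas 2.3.3 and matplotlib 3.10.9.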

Additional observations from a re-analysis of the deposited data

Results flagged for a closer look

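In 7 of 102 groups of 4 arrays, 1 array lay far from the other 3 by Dixon's criterion, where about 1 group in 20 is marked by chance. Among probe sets above background, knock-down replicate 4 gave 5.873 for the brightest Jak2 probe set, against 6.453 to 6.519 in the other knock-down arrays. Luc replicate 2 gave 7.903 for 1433803_at of Jak1, against 7.408 to 7.461. Luc replicate 4 gave 7.438 for 1423006_at of Pim1, against 7.554 to 7.569, and Luc replicate 3 gave 10.17 for Ptpn11, against 10.27 to 10.28. The other 3 were dim probe sets, in each of which Luc replicate 2 stood apart, with 2.408 for Lif, 3.076 for Lifr and 3.585 for Socs2.

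Changes that differed between replicates 1 and 2 and replicates 3 and 4 by an interaction test in limma were found for 1451069_at of Pim3, with a difference of 0.4878 between -0.8144 and -0.3267 (adjusted p = 0.03363), and for Ier3, an immediate early gene of the target list, with a difference of 1.538 between -1.56 and -0.02155 (adjusted p = 0.01892). For Ier3 the knock-down arrays lay between 8.64 and 8.82, whereas Luc replicates 1 and 2 gave 10.22 and 10.36 and Luc replicates 3 and 4 gave 8.73 and 8.71. A further 3 probe sets moved in opposite directions in every array of the 2 sets without passing that test. They were 1421239_at of Il6st, dim, with a difference of 0.07466, 1426587_a_at of Stat3 with -0.311 between 0.2089 and -0.1021 (adjusted p = 0.0977), and 1459961_a_at of Stat3 with -0.8217 between 0.3282 and -0.4935 (adjusted p = 0.318).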

How the results depend on the processing

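Over the alternatives the number of called genes among the 10 ran between 3 and 7, where 6 were called in the reported comparison. The low value of 3 came from replicates 3 and 4 only, which have 2 arrays per group, and the high value from the minimum mean of 4, under which Lif was called too (adjusted p = 0.0414). Lifr, Socs2 and Pim3 were called under every alternative. The number of called probe sets among the 32 ran between 11 and 13, and that of the 54 pathway genes between 16 and 24, where 19 was reported. With the replicate number as a block the same 6 genes were called and 6224 probe sets over the array. The replicate numbers did not pair the arrays (correlations of same-numbered deviations of 0.0215 to 0.133 in 4 pairs, 1 of 4 knock-down arrays nearest to its own number), and the block changed 2 calls among the 32 probe sets, 1437303_at of Il6st (adjusted p = 0.0493, called) and 1446085_at of Socs2 (adjusted p = 0.107, not called). Centring on bright probe sets gave 50.04% falls among called probe sets over the array. A STAT motif with the wider spacing occurred at 0 of the promoters, against 1 with the first spacing. The reversed values themselves had no call, although Ptpn11, listed among them below, was called as a rise in the reported comparison. For Jak1 they were -0.0063 without knock-down replicate 2 (range -0.0063 to 0.074 with 1 array left out) and -0.11 as the mean of all probe sets, and 0.17 at 1433804_at in replicates 1 and 2. Stat3 gave -0.025 in replicates 3 and 4, its second probe set -0.10 there and -0.016 to 0.13 with 1 array left out, the next 0.33 in replicates 1 and 2 and -0.21 to 0.13 with 1 array left out, and the dim one -0.034 in replicates 1 and 2, -0.0038 under quantile normalization and -0.0046 to 0.026 with 1 array left out. Socs3 gave -0.24 without _x_at and _s_at probe sets and -0.011 as the mean of all. The faintest Pim3 probe set gave 0.082 in replicates 1 and 2 and -0.25 to 0.047 with 1 array left out, and the mean of all Ptpn11 probe sets was -0.064. Dim probe sets reversed for Il6st (0.037 in replicates 3 and 4, 0.029 with bright centring, -0.011 to 0.019 with 1 array left out), Jak2 (-0.046 in replicates 1 and 2) and Socs2 (-0.098 to 0.0048 with 1 array left out, 0.0019 with bright centring). The cause was not tested.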

Other observations

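Some further genes of the pathway lists had groups that did not overlap without passing the test. Pim2, the third PIM kinase gene, gave 10.02, 10.06, 10.76 and 10.71 in the knock-down arrays and 9.85, 9.71, 9.65 and 9.84 in the Luc arrays. All knock-down arrays were above all Luc arrays, opposite to Pim1 and Pim3, with a change of 0.62 ± 0.19 (SE, 95% interval 0.19 to 1.06, adjusted p = 0.0688 in limma). Within replicates 1 and 2 the Pim2 change was 0.26 without a call (adjusted p = 0.0874 in limma). Within replicates 3 and 4 it was 0.99 with a call (adjusted p = 0.0182). Ctf1, which encodes cardiotrophin-1, another ligand of LIFR and gp130, gave 5.97, 5.30, 6.09 and 5.53 in the knock-down arrays and 6.36, 6.43, 6.17 and 6.55 in the Luc arrays, a change of -0.65 ± 0.18 (adjusted p = 0.0542). Ptpn6, which encodes the phosphatase SHP1, had overlapping groups over all 8 arrays and a change of -0.59 ± 0.21 (adjusted p = 0.121). It was called as lower within both replicate sets, with 8.48 and 8.34 in the knock-down arrays and 9.18 and 9.11 in the Luc arrays of replicates 1 and 2 (-0.73, adjusted p = 0.0085), and with 8.03 and 8.002 in the knock-down arrays and 8.41 and 8.51 in the Luc arrays of replicates 3 and 4 (-0.44, adjusted p = 0.0255).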
